A study of Homo sapiens with 6 samples.

Results

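TRIB3, TRIB1, TRIB2, NUPR1, CHAC1, SESN2, PPP1R15A, DDIT4 and VLDLR were listed together as effector genes of the integrated stress response. Their transcripts were followed in MDA-MB-231 cells that overexpressed DNAJC12. The members were taken by gene symbol from the deposited count table, where all 9 were found among 58735 genes. These 9 were selected on values measured in the same 6 libraries, their difference between overexpression and vector, so that difference is given as a description. The counts of members past a threshold come from fits over all genes and test nothing about these 9. MDA-MB-231 is an established human cell line of mesenchymal, triple-negative breast cancer. The overexpression group was 3 libraries of cells transfected with a vector carrying DNAJC12, a cochaperone of the DNAJ family, and the control group was 3 libraries of cells transfected with empty vector. The labels give no other treatment, no time after transfection, no promoter and no word on whether the cells were a pool or 1 clone. They do not say that replicates came from separate cultures, so p-values measure only the spread between these libraries, which may be technical.

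The integrated stress response starts when 1 of 4 kinases phosphorylates the translation initiation factor eIF2 in response to unfolded proteins, missing amino acids, double-stranded RNA or haem shortage. Most translation then slows, while the transcription factor ATF4 is made from its mRNA and, with partners such as CHOP (encoded by DDIT3) and C/EBP proteins, drives a programme of transcripts. The 9 genes were listed together as effectors of that programme, and whether each of them is one was not tested. Some feed back on the programme (PPP1R15A, TRIB3), and some act on growth signalling and metabolism (SESN2, DDIT4, CHAC1). NUPR1 acts in the nucleus, and VLDLR takes up lipoproteins at the cell surface.

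DNAJC12 was counted 522, 523 and 492 times in the overexpression libraries and 1, 0 and 0 times in the vector libraries, as labelled. Each library held 17967283 to 18887497 counts. The mesenchymal markers VIM (mean CPM, as defined below, 921 in overexpression against 891 in vector) and CD44 (571 against 611) were abundant. So were AXL (1898 against 1396), CAV1 (601 against 320) and TGFBI (165 against 151), while SPARC (1.23 against 2.43) and ZEB1 (3.93 against 2.59) were low. The groups did not overlap for AXL and CAV1, higher in overexpression, and for SPARC, lower (9.26% and 10.8% of all genes). Of the luminal markers, ESR1 and PGR were at or below 0.16 CPM in every library, and KRT19 was abundant (438 against 740 CPM). GATA3 (4.58 against 4.02 CPM), CDH1 (4.02 against 3.96 CPM) and TFF1 (2.46 against 6.24 CPM) were low. KRT19 and TFF1 were lower in overexpression without overlap (10.8% of all genes were), while GATA3 and CDH1 overlapped. Overexpression replicate 2 stood apart from replicates 1 and 3 of its group on the first principal component, which held 49.9% of the variance. Counts of calls are given below with and without it. Summed markers of leukocytes were 9.12 to 20.4 CPM in overexpression and 14.0 to 17.1 in vector, with 2 of 7 (CD3E and MS4A1) at 0 in all libraries. They were mostly CD14 (mean CPM 8.95 against 7.16) and CSF1R (5.15 against 7.87). The sums for fibroblast markers were 53.002 to 83.4 against 32.2 to 38.5, mostly PDGFRB. COL1A1 had a mean CPM of 5.75 against 8.48 and COL1A2 of 2.06 against 1.08, while COL3A1 and DCN were at or near 0. The sums for kidney epithelium were 10.4 to 14.4 against 5.47 to 6.34, mostly PAX8, with 3 of 5 at 0. The part of these markers in the results below was not tested.

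TRIB3 encodes a pseudokinase that binds AKT and ATF4 and is a feedback inhibitor of ATF4. Its level in CPM, the count scaled for library size by the TMM method, was 409, 749.6 and 531 in overexpression replicates 1, 2 and 3, and 60.04, 68.5 and 68.2 in vector replicates 1, 2 and 3. The groups were far from overlapping: the lowest overexpression library was 5.97 times the highest vector library. The means were 563 ± 173 and 65.6 ± 4.78 CPM (SD, n = 3 each), and the fitted log2 fold change was 3.10 ± 0.26 (SE), the 8th highest of 14520 genes tested. The gene lies on chromosome 20, plus strand, 362835 to 397559 (GRCh38).

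NUPR1, a small chromatin-associated protein of stressed cells, had the next largest difference. Its CPM was 53.2, 66.5 and 67.0 in overexpression and 9.23, 7.06 and 10.2 in vector. All 3 overexpression libraries were well above all 3 vector libraries, 62.2 ± 7.85 against 8.82 ± 1.60 CPM (SD, n = 3 each). The log2 fold change was 2.82 ± 0.24 (SE), the 12th highest of the genes tested. Unlike TRIB3, NUPR1 had about the same level in overexpression replicates 2 and 3. It lies on chromosome 16, minus strand, 28532708 to 28539174.

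SESN2 encodes sestrin 2, a leucine-binding protein that restrains mTORC1 through GATOR2. Its CPM was 169.6, 247 and 182 in overexpression and 37.3, 48.1 and 45.7 in vector, on chromosome 1, plus strand, 28259527 to 28282491. The groups did not overlap, and the means were 199.5 ± 41.8 and 43.7 ± 5.67 CPM (SD, n = 3 each). The log2 fold change was 2.19 ± 0.23 (SE).

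CHAC1 encodes an enzyme that degrades glutathione. Its CPM was 83.4, 138 and 98.4 in overexpression and 26.1, 26.3 and 27.7 in vector, on chromosome 15, plus strand, 40952962 to 40956519. The vector libraries were nearly equal, with an SD of 0.834 around 26.7 CPM, and the overexpression libraries spread around 107 CPM with an SD of 28.2 (n = 3 each). The log2 fold change was 1.996 ± 0.24 (SE). CHAC1 is a known ATF4 target, and its promoter was the 1 member promoter of 7 with the core of the composite element of C/EBP and ATF factors, TGATGNAA, shown here because that element is what ATF4 with a C/EBP partner binds. The promoter windows were 250 bases before to 50 after each RefSeq start site, 35116 windows in all, searched on both strands, and 3.62% of all windows held this motif. The match lies 209 to 202 bases before the CHAC1 start, on the reverse complement, inside an exon of another annotated transcript of CHAC1. The 30 bases around it (GRCh38.p14, plus strand, chr15:40953251-40953280) have the match in capitals.
CHAC1: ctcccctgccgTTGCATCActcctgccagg

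PPP1R15A encodes GADD34, the stress-induced subunit that directs protein phosphatase 1 to eIF2 and so reverses the response. Its CPM was 789.8, 1119 and 1007 in overexpression and 592, 662 and 625 in vector. Per length it was the most abundant of the 9 genes in both groups, at 311 FPKM in overexpression and 201 in vector. The groups did not overlap, but by a small margin: the lowest overexpression library was 1.19 times the highest vector library. The means were 972 ± 167 and 626 ± 35.0 CPM (SD, n = 3 each) and the log2 fold change was 0.63 ± 0.20 (SE). The gene lies on chromosome 19, plus strand, 48872392 to 48876057. Its promoter held the palindromic cyclic AMP response element TGACGTCA, to which CREB and ATF family dimers bind, 58 to 51 bases before the start (1.85% of all windows held it). The bases from 250 to 30 before the start (GRCh38.p14, plus strand, chr19:48872171-48872391) show it in capitals, near the start of the most abundant of these genes.
PPP1R15A: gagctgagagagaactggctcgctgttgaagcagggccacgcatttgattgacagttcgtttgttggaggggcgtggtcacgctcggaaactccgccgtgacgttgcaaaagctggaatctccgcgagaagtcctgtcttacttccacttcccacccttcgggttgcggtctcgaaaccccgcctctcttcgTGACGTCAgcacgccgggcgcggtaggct

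DDIT4 encodes REDD1, which restrains mTORC1 through the TSC complex and is induced by stress, hypoxia and glucocorticoids. Its CPM was 213, 318 and 225 in overexpression and 94.6, 151 and 131 in vector. The groups did not overlap, with means of 252 ± 57.2 and 126 ± 28.7 CPM (SD, n = 3 each) and a log2 fold change of 1.003 ± 0.25 (SE). Replicate 2 was the highest library of each group. The gene lies on chromosome 10, plus strand, 72273920 to 72276036. An antisense gene, DDIT4-AS1, shares 1066 bases with it and had 0 counts in all 6 libraries. Since hypoxia is one of its known inducers, 1 form of the core of the hypoxia response element, ACGTG, was searched. It was found 125 to 121 bases before the DDIT4 start (21.4% of all windows held it). Other forms of that core, such as GCGTG, were not searched and are not marked. The match is in capitals in the bases from 250 to 5 before the start (GRCh38.p14, plus strand, chr10:72273674-72273919).
DDIT4: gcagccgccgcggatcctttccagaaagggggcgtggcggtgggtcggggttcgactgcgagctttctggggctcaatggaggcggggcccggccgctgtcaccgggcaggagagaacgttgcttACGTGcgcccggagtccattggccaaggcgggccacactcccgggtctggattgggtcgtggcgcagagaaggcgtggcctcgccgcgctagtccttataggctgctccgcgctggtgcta

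No motif match overlapped another, and the fourth motif searched, the ER stress response element bound by ATF6, was in 0.0769% of all windows and in none of the 7 member promoters. TRIB1 and NUPR1 had no entry among the RefSeq promoters. Each match is a description of the letters, and binding was not measured.

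TRIB2, a Tribbles pseudokinase that directs the ubiquitin ligase COP1 to C/EBP alpha, had 72.6, 55.0 and 63.6 CPM in overexpression and 33.5, 38.8 and 39.1 in vector. The groups did not overlap, with means of 63.7 ± 8.79 and 37.1 ± 3.16 CPM (SD, n = 3 each) and a log2 fold change of 0.78 ± 0.21 (SE). Here overexpression replicate 2 was the lowest of its group, where for TRIB3 it was the highest. TRIB2 lies on chromosome 2, plus strand, 12716889 to 12742734. Its paralog TRIB1, which shares the COP1 partner, had 44.3, 38.1 and 42.7 CPM in overexpression and 56.1, 48.1 and 50.2 in vector. It was the 1 member lower in overexpression in every library pair, 41.7 ± 3.24 against 51.5 ± 4.18 CPM (SD, n = 3 each). Its log2 fold change was -0.30 ± 0.20 (SE), with a 95% interval from -0.74 to 0.13. TRIB1 lies on chromosome 8, plus strand, 125430321 to 125438405.

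VLDLR, a receptor of triglyceride-rich lipoproteins and reelin, had 28.5, 15.3 and 23.4 CPM in overexpression and 18.7, 13.1 and 14.5 in vector. The groups overlapped, since overexpression replicate 2 was below vector replicate 1. Means were 22.4 ± 6.66 and 15.5 ± 2.91 CPM (SD, n = 3 each), and the log2 fold change was 0.54 ± 0.29 (SE) with a 95% interval from -0.11 to 1.18. VLDLR lies on chromosome 9, plus strand, 2621834 to 2660053. An opposite-strand gene, VLDLR-AS1, shares 21526 bases with it and had 82, 61 and 52 counts in overexpression and 0, 7 and 18 in vector. Whether counting used the strand is not given in the sources used here, so reads of the pair cannot be told apart. In bulk RNA, fewer cells expressing a gene and less RNA per cell cannot be told apart either.

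**Figure D1:**
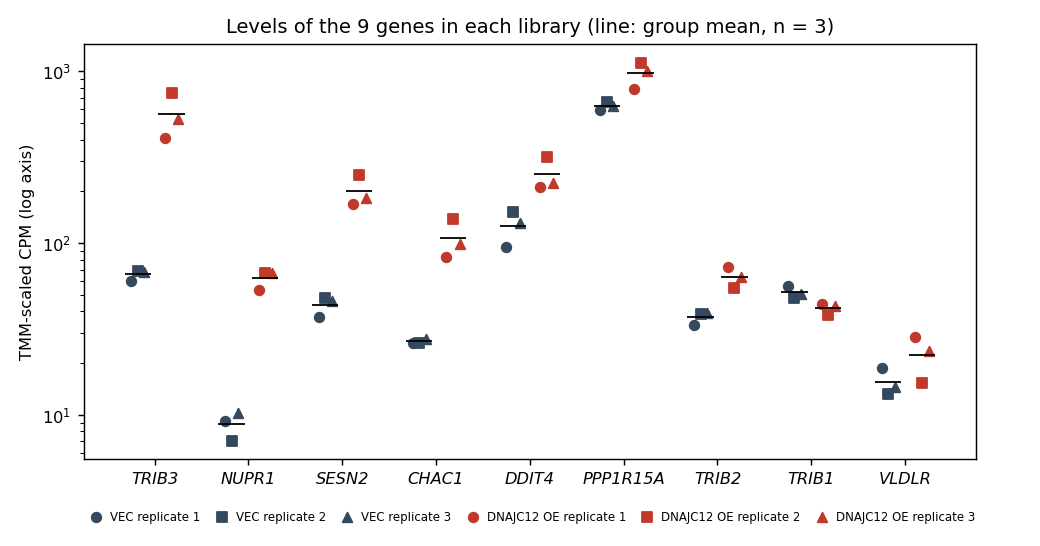
CPM (log axis) of each of the 9 genes in the 3 overexpression and 3 empty vector libraries, with 1 point per library and a line at each group mean (n = 3). TRIB3, NUPR1, SESN2 and CHAC1 have the widest gaps between groups, PPP1R15A and DDIT4 narrow ones, TRIB1 is the 1 gene with the vector libraries on top, and VLDLR overlaps.

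All 9 genes passed the filter on low counts. With edgeR's quasi-likelihood test and p-values adjusted over all 14520 genes, 4 of the 9 (TRIB3, NUPR1, SESN2 and CHAC1) were past the threshold of 0.05 in the higher direction, a rule that called 0.585% of all genes. None was called lower, against 0.661% of all genes, and 5 were not called. The log2 fold change was above 0 for 8 of 9, against 54.9% of all genes, and the median of the 9 was 1.003 against 0.05 for all genes. The groups did not overlap for 7 in the higher direction and for TRIB1 in the lower one. Over all genes those shares were 9.26% and 10.8%. Because the genes were proposed from this contrast, nothing follows from these counts about the set. Per-length values gave like folds: the ratio of mean FPKM between groups was 8.55 for TRIB3, 7.02 for NUPR1, 4.55 for SESN2, 3.97 for CHAC1, 1.99 for DDIT4, 1.71 for TRIB2, 1.54 for PPP1R15A, 1.44 for VLDLR and 0.806 for TRIB1.

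The number of members past the threshold depended on which libraries were fitted. Without overexpression replicate 2 it was 8, all but TRIB1, in a fit that called 12.1% of all genes higher. Without both libraries numbered 2 it was 7, all but TRIB1 and VLDLR, against 10.3% of all genes. With a trend on GC content removed from each library it was 8, again all but TRIB1, against 10.4%. Leaving out overexpression replicate 1 gave 5 (0.95% of all genes) and replicate 3 gave 4 (0.128%). Leaving out vector replicate 1, 2 or 3 gave 3 (0.101%), 4 (0.141%) and 3 (0.107%). CHAC1 was the member no longer called without vector replicate 1 or 3. DESeq2's Wald test called 6 (1.99% of all genes), and limma on log2 FPKM with a pseudocount of 1 called 4 (0.594%). TRIB3 and NUPR1 were called in 17 of 17 alternative fits and TRIB1 in 0 of 17. The log2 fold changes moved less than the calls: over the fits that left out 1 library, TRIB3 ran from 2.84 to 3.28, NUPR1 from 2.66 to 2.93, DDIT4 from 0.80 to 1.13, TRIB1 from -0.37 to -0.24 and VLDLR from 0.32 to 0.75.

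**Figure D2:**
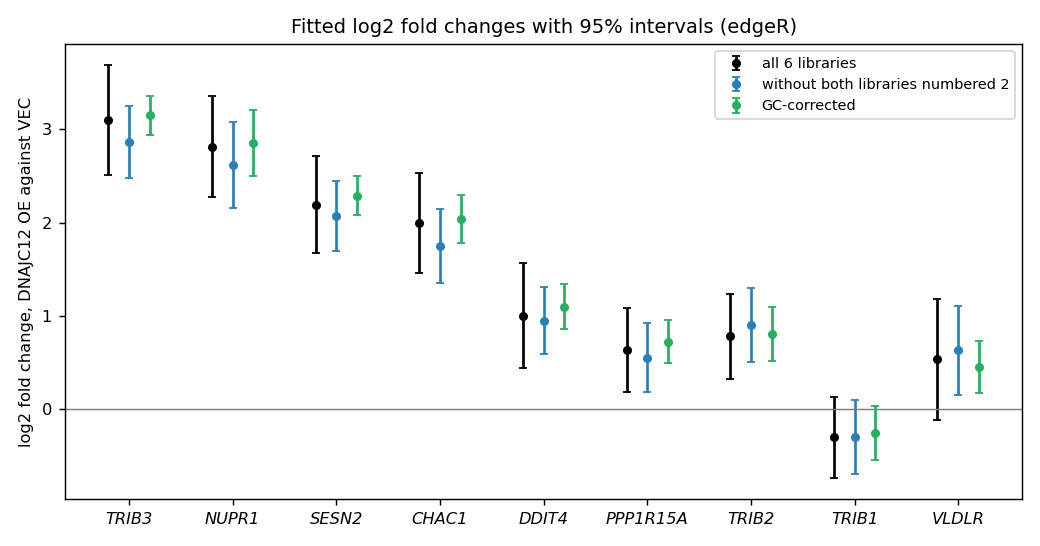
Log2 fold change of overexpression against vector for each of the 9 genes with its 95% interval, from the fit of all 6 libraries and from the alternatives named in the legend. TRIB3 is highest at 3.10, and the intervals of TRIB1 and VLDLR in the fit of all 6 libraries reach across 0.

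Levels of different genes were compared per length, in FPKM. In the vector group the order of mean FPKM was PPP1R15A (201), DDIT4 (60.7), TRIB3 (19.0), CHAC1 (12.9), SESN2 (12.6), TRIB1 (12.4), TRIB2 (8.04), VLDLR (1.65) and NUPR1 (1.55). The libraries' ranges overlapped among CHAC1, SESN2 and TRIB1, and between VLDLR and NUPR1, and were apart for the other neighbours. In the overexpression group the order was PPP1R15A (311), TRIB3 (162), DDIT4 (121), SESN2 (57.2), CHAC1 (51.2), TRIB2 (13.7), NUPR1 (10.8), TRIB1 (9.96) and VLDLR (2.37). There the ranges of TRIB3 and DDIT4, of SESN2 and CHAC1, and of NUPR1 and TRIB1 overlapped. Summed over the 9 genes, the level was 1863, 2746 and 2239 CPM in overexpression and 927, 1063 and 1012 CPM in vector, or 0.186% to 0.275% against 0.0927% to 0.106% of normalised counts.

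Within the Tribbles family the mixture of transcripts differed between groups. TRIB3 made up 81.8%, 91.2% and 86.5% of the summed FPKM of TRIB1, TRIB2 and TRIB3 in overexpression replicates 1, 2 and 3, and 45.6%, 49.8% and 49.0% in vector. TRIB1 was 7.35%, 3.84% and 5.78% of the family in overexpression and 35.4%, 29.02% and 29.96% in vector. The share of TRIB2 was 10.9%, 5.01% and 7.75% against 19.0%, 21.1% and 21.0%. Since TRIB2 had a higher level in overexpression but a smaller share, its lower share came with the larger sum, which was 143, 239 and 176 FPKM in overexpression and 37.9, 40.0 and 40.3 in vector.

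**Figure D3:**
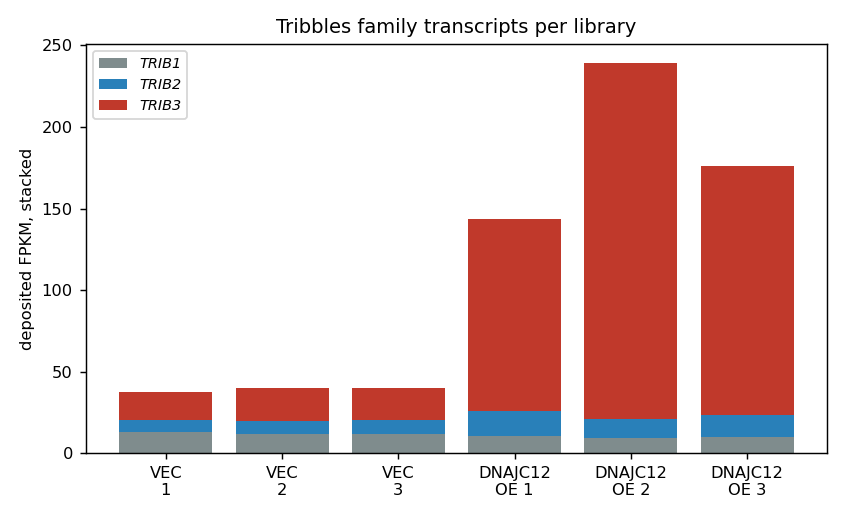
Deposited FPKM of TRIB1, TRIB2 and TRIB3 stacked for each of the 6 libraries. The 3 overexpression bars reach 143 to 239 FPKM and are mostly TRIB3, while the 3 vector bars reach 37.9 to 40.3 FPKM.

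The eIF2 phosphatase has a stress-induced targeting subunit, PPP1R15A, and a constitutive one, PPP1R15B. The ratio of their FPKM was 10.5, 33.7 and 17.4 in overexpression replicates 1, 2 and 3 and 16.1, 21.5 and 17.9 in vector. The vector values lay inside the overexpression range, so the ratio did not separate the groups. PPP1R15B itself had 127, 56.1 and 97.9 CPM in overexpression and 62.0, 52.0 and 59.1 in vector, lowest in replicate 2 of each group.

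The spread among replicates did not use the difference between groups that chose the genes. On the log2 CPM scale, overexpression replicate 2 lay above the mean of replicates 1 and 3 by 0.69 for TRIB3, 0.61 for CHAC1, 0.54 for DDIT4, 0.49 for SESN2, 0.33 for PPP1R15A and 0.16 for NUPR1. It lay below that mean for TRIB1 (-0.19), TRIB2 (-0.30) and VLDLR (-0.75). Except that TRIB3 and CHAC1 change places, this is the order of the members by GC content of their transcripts. GC content was 62.6% for CHAC1, 61.7% for TRIB3, 61.2% for DDIT4, 59.5% for SESN2, 57.9% for PPP1R15A, 52.2% for NUPR1, 51.4% for TRIB1, 50.1% for TRIB2 and 44.6% for VLDLR. Across all genes tested, the median gap of overexpression replicate 2 ran from -1.09 in the lowest of 5 equal bins of GC content, through -0.65, 0.04 and 0.56, to 0.73 in the highest bin. TRIB3, CHAC1, SESN2 and DDIT4 fall in that highest bin, at 58.6% GC or more. Vector replicate 2 had a smaller gap of the same order, from -0.41 to 0.27. The part of GC content in the differences between groups was not tested beyond the correction that follows.

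**Figure D4:**
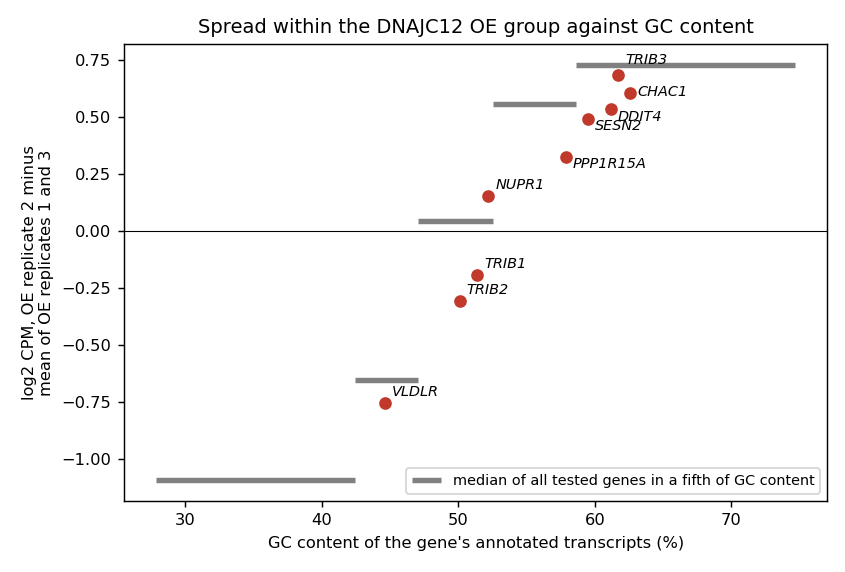
Log2 CPM of overexpression replicate 2 minus the mean of replicates 1 and 3 (vertical axis) against GC content of a gene's transcripts in percent (horizontal axis). Points are the 9 members. Grey lines are the medians of all tested genes in 5 equal bins of GC content, without the spread around them. The members run from VLDLR at 44.6% GC and a gap of -0.75 to TRIB3 and CHAC1 above 61% GC and gaps of 0.69 and 0.61.

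Removing the GC trend from each library narrowed the range of the 3 overexpression libraries from 0.87 to 0.11 on the log2 scale for TRIB3, from 0.73 to 0.11 for CHAC1, from 0.89 to 0.15 for VLDLR, from 0.54 to 0.19 for SESN2 and from 0.57 to 0.22 for DDIT4. It widened the range from 0.22 to 0.43 for TRIB1 and from 0.40 to 0.46 for TRIB2. Among the vector libraries the range narrowed from 0.68 to 0.32 for DDIT4, from 0.51 to 0.22 for VLDLR and from 0.36 to 0.13 for SESN2, and widened from 0.08 to 0.39 for CHAC1, from 0.22 to 0.28 for TRIB1 and from 0.52 to 0.58 for NUPR1. The log2 fold changes after this correction were 3.15 for TRIB3, 2.86 for NUPR1, 2.29 for SESN2, 2.04 for CHAC1, 1.10 for DDIT4, 0.80 for TRIB2, 0.72 for PPP1R15A, 0.46 for VLDLR and -0.26 for TRIB1. The shifts from the uncorrected fit were largest for DDIT4, from 1.003 to 1.10, and SESN2, from 2.19 to 2.29. Without both libraries numbered 2 they were 2.86 for TRIB3, 2.62 for NUPR1, 2.07 for SESN2, 1.75 for CHAC1, 0.95 for DDIT4 and 0.90 for TRIB2.

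The same trend showed in how members varied together. Deviations of log2 CPM from the group mean were set beside those of TRIB3 over the 6 libraries, as a description, since the libraries share depth and base composition. Pearson's r was 0.97 for CHAC1, 0.95 for PPP1R15A, 0.91 for SESN2, 0.79 for DDIT4 and 0.40 for NUPR1, and -0.69 for TRIB2, -0.83 for TRIB1 and -0.95 for VLDLR. The median was 0.59, against 0.07 over all genes tested, and it was 0.37 without overexpression replicate 1 and 0.44 without replicate 2. After the GC correction r was 0.75 for CHAC1, 0.44 for PPP1R15A, -0.44 for SESN2, -0.85 for DDIT4, 0.89 for NUPR1, -0.51 for TRIB2, 0.30 for TRIB1 and 0.36 for VLDLR. The sign turned for SESN2, DDIT4, TRIB1 and VLDLR. Co-variation of these 4 with TRIB3 within groups therefore depended on that correction.

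Over all 6 libraries, group difference included, the protein-coding genes outside the set whose log2 CPM was most like TRIB3 included DYSF (Pearson's r 0.9993), TMEM268 (0.9986), HIST1H2BK (0.9986) and PRSS2 (0.9977), among those with a mean of at least 5 CPM. DYSF, which encodes the membrane repair protein dysferlin, had 93.5, 139.8 and 112 CPM in overexpression and 31.1, 35.5 and 34.1 in vector. HIST1H2BK and PRSS2 have near-identical copies, so their values are uncertain. Of the members, the r with TRIB3 on that measure was highest for CHAC1 (0.998), SESN2 (0.997) and NUPR1 (0.986), and lowest for TRIB1 (-0.912). Since that r includes the group difference on which the members were selected, it tests nothing about their likeness.

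The rest of the pathway was read from lists, beginning with its transcription factors. Of 7 tested, 2 rose and none fell (0.585% and 0.661% of all genes). All 7 log2 fold changes were above 0 (54.9% of all genes), with a median of 0.81. JDP2, a bZIP factor of the ATF3 family, rose from 21.1 ± 2.93 to 67.8 ± 13.7 CPM, a log2 fold change of 1.68 ± 0.23 (SE, adjusted p = 0.0117, edgeR). CEBPG, a dimer partner of ATF4, rose from 27.1 ± 4.26 to 98.8 ± 40.2 CPM, by 1.87 ± 0.32 on the log2 scale (adjusted p = 0.031, edgeR). ATF4 had 594, 691 and 685 CPM in overexpression and 375, 403 and 403 in vector, without overlap, and a log2 fold change of 0.74 ± 0.18 (adjusted p = 0.0923, edgeR). DDIT3 had 38.2, 28.6 and 36.3 against 23.1, 17.1 and 18.7 CPM, also without overlap (log2 fold change 0.81 ± 0.23, adjusted p = 0.149, edgeR). Neither passed in the uncorrected edgeR fit of all 6 libraries. DESeq2 called 4 of 7 factors higher (1.99% of all genes) and limma on log2 FPKM called 1 of 7 (0.594%). With the GC correction, also on all 6 libraries, 7 of 7 factors were called higher (10.4% of all genes were), ATF4 and DDIT3 included. Without both libraries numbered 2, 6 of 7 were (10.3% of all genes). Without overexpression replicate 3 or any 1 of the 3 vector libraries, 0 were called, JDP2 and CEBPG included.

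Further target genes of ATF4 and CHOP, outside the 9, numbered 37 tested of 40 listed, and 22 rose while none fell (0.585% and 0.661% of all genes). Their median log2 fold change was 1.30, and 34 were above 0 (54.9% of all genes). The groups did not overlap for 27 in the higher and 2 in the lower direction (9.26% and 10.8% of all genes). The smallest adjusted p-values (edgeR) were those of CTH, the cystathionine gamma-lyase of cysteine synthesis (68.4 ± 7.31 against 9.75 ± 2.30 CPM, log2 fold change 2.81 ± 0.25, adjusted p = 0.00155), and PHGDH, the first enzyme of serine synthesis (49.6, 76.8 and 53.7 CPM against 9.71, 8.84 and 9.11 CPM, 2.70 ± 0.25, adjusted p = 0.00163). SLC1A4, a transporter of neutral amino acids, rose by 2.67 ± 0.26 on the log2 scale (adjusted p = 0.00194, edgeR) and GDF15, a secreted stress cytokine, by 2.40 ± 0.26 (adjusted p = 0.00342, edgeR). These 4 were called in 6 of 6 fits that left out 1 library. In the fits without overexpression replicate 1, 2 or 3, calls in the higher direction came to 25, 31 and 8 (0.95%, 12.1% and 0.128% of all genes), and in those without vector replicate 1, 2 or 3, to 6, 9 and 7 (0.101%, 0.141% and 0.107%). They came to 32 without both libraries numbered 2 (10.3% of all genes) and to 30 with the GC correction (10.4%). DESeq2 called 26 of 37 higher (1.99% of all genes) and limma on log2 FPKM called 18 of 36 (0.594%). NDRG1 and ALDH18A1 were called lower without both libraries numbered 2 (8.41% of all genes) and without overexpression replicate 2 (10.4%). With the GC correction NDRG1 and ERO1A were (9.87%).

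Upstream of ATF4, the list of eIF2 kinases and their activators had 0 of 11 called in either direction and a median log2 fold change of 0.08 (-0.03 with the GC correction). Over the fits that left out 1 library, the median ran from -0.13 (without overexpression replicate 1) to 0.31 (without overexpression replicate 2). Before adjustment, edgeR's p was under 0.05 for 1 higher gene and 0 lower ones, and DESeq2 and limma called 0. Of all 14520 genes tested, 2048 had an unadjusted edgeR p under 0.05, both directions together. GCN1, the activator of the kinase GCN2, had a log2 fold change of -0.25 ± 0.25, and EIF2AK1, the haem-regulated kinase, -0.30 ± 0.19. EIF2AK1 had 87.5, 89.7 and 89.5 CPM in overexpression, below the 127, 101 and 101 CPM of vector. The listed activator DELE1 had 44.8, 56.5 and 45.7 CPM in overexpression, above the 35.7, 36.3 and 35.2 CPM of vector. Its log2 fold change was 0.45 ± 0.20, and it was called higher with the GC correction (10.4% of all genes were). Of the 11 genes, 8 had a log2 fold change above 0 (54.9% of all genes). Of eIF2, its exchange factor eIF2B and its phosphatase, 0 of 17 were called, with a median of 0.17. Before adjustment edgeR's p was under 0.05 for 3 of them, 2 higher and 1 lower, and DESeq2 and limma called 0. Its most abundant genes, PPP1CA and PPP1CC, encode catalytic subunits of protein phosphatase 1, and PPP1CA had a log2 fold change of 0.25 ± 0.28.

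Of the paralogs of the 9 genes, 0 of 9 tested were called by edgeR or DESeq2, and 0 of 6 by limma. Their median log2 fold change was 0.25. Before adjustment edgeR's p was under 0.05 for 3 in the higher and 1 in the lower direction (2048 of all 14520 genes, both directions). STK40, a Tribbles-like pseudokinase and among the most abundant of them, had a log2 fold change of 0.56 ± 0.23. SESN1, the p53-induced sestrin, had 3.91, 2.15 and 3.76 CPM in overexpression and 1.61, 2.003 and 1.71 in vector. Whether paralogs differ from the 9 genes was not tested. Of 27 tested binding partners and effectors of the 9, 1 rose and 0 fell (0.585% and 0.661% of all genes), with a median of 0.21. These counts were 2 and 0 without overexpression replicate 1, and 0 and 0 without overexpression replicate 3 or any 1 of the vector libraries.

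Other stress inputs are known to act on some of the 9 genes. For the ATF6 and XBP1 branches of the endoplasmic reticulum stress response, 0 of 17 genes were called. Their median log2 fold change was 0.15. Over the fits that left out 1 library, it ran from -0.08 (without overexpression replicate 1) to 0.35 (without overexpression replicate 2). Before adjustment edgeR's p was under 0.05 for 5 higher and 2 lower genes (2048 of all 14520 genes, both directions). DESeq2 called 1 higher and limma 0. The chaperone HSPA5 had 1981, 1234 and 1915 CPM in overexpression and 1220, 871 and 1184 in vector, without overlap (0.65 ± 0.24), while the chaperone CALR had 992, 1538 and 1096 against 1678, 1806 and 1756 (-0.53 ± 0.21). For p53, which induces SESN2, 0 of 12 target genes were called by edgeR, DESeq2 or limma. Their median was 0.19, and before adjustment edgeR's p was under 0.05 for 1 higher gene. MDA-MB-231 is a p53-mutant line, and a part of p53 in the level of SESN2 was not tested. CDKN1A, the p53-induced inhibitor of the cell cycle, had 0.04 ± 0.25 and BAX, a p53-induced death gene, 0.05 ± 0.25.

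Hypoxia-inducible genes had a median log2 fold change of -0.47, with 2 of 15 that fell, 0 that rose and 1 above 0. Over all genes 0.661% fell, 0.585% rose and 54.9% were above 0. EGLN3, an oxygen-sensing hydroxylase, fell from 38.3 ± 0.768 to 13.8 ± 0.583 CPM (log2 fold change -1.47 ± 0.21, adjusted p = 0.0119, edgeR), and ANGPTL4, an inhibitor of lipoprotein lipase, from 49.1 ± 8.65 to 13.9 ± 5.56 CPM (-1.83 ± 0.32, adjusted p = 0.0305, edgeR). DDIT4, which hypoxia also induces, was higher in all 3 overexpression libraries than in any vector library. The number that fell was 3 without overexpression replicate 1 (0.728% of all genes called lower), 8 without replicate 2 (10.4%) and 0 without replicate 3 (0.0403%). It was 0 without vector replicate 1, 2 or 3 (0.0671%, 0.134% and 0.0739% of all genes). It was 6 with DESeq2 (1.9%), 2 with limma (0.649%), 6 without both libraries numbered 2 (8.41%) and 8 with the GC correction (9.87%). Of 9 glucocorticoid-inducible genes 1 rose and 1 fell (0.585% and 0.661% of all genes), with a median of 0.18. TSC22D3, which encodes the glucocorticoid-induced leucine zipper, rose from 14.1 ± 1.01 to 37.3 ± 5.44 CPM (1.40 ± 0.23, adjusted p = 0.0226, edgeR), and ANGPTL4, counted here too, is the 1 that fell. TSC22D3 was called in 2 of 6 fits that left out 1 library, those without overexpression replicate 1 or 2.

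Lists with few or no calls in the fit of all 6 libraries had more in the fits that called more of all genes. Without overexpression replicate 2, which called 12.1% of all genes higher and 10.4% lower, the counts higher and lower were 2 and 1 of 11 kinases and activators, 5 and 2 of 17 genes of eIF2, eIF2B and the phosphatase, 2 and 1 of 9 paralogs, and 8 and 3 of 27 partners. They were 6 and 3 of 17 genes of the ATF6 and XBP1 branches, 2 and 1 of 12 p53 targets, and 3 and 2 of 9 glucocorticoid-inducible genes. Without both libraries numbered 2 (10.3% and 8.41% of all genes), the counts in the same order were 1 and 1, 5 and 1, 2 and 1, 7 and 3, 4 and 3, 2 and 1, and 3 and 1. With the GC correction (10.4% and 9.87%) they were 1 and 0, 3 and 2, 3 and 1, 9 and 3, 5 and 3, 1 and 0, and 3 and 1. All lists were drawn up with earlier results of these libraries known, so their counts are not independent evidence of a direction.

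**Figure D5:**
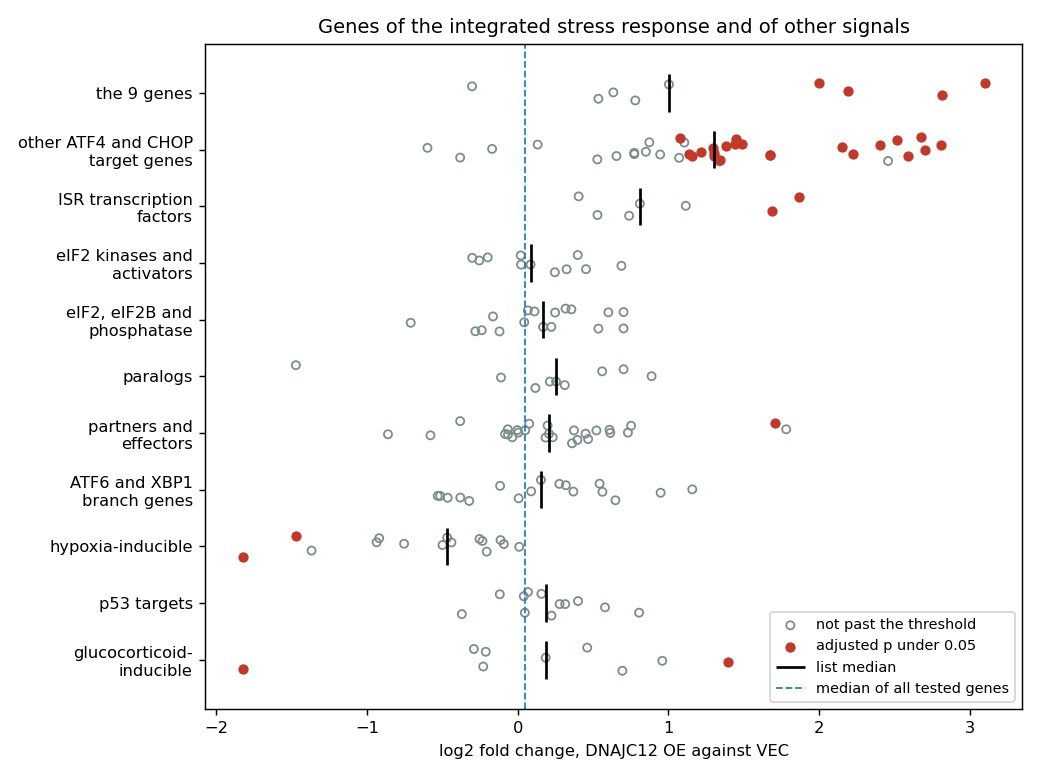
Log2 fold change of each tested gene, overexpression against vector, by list, with the dashed line at the median of all tested genes (0.05). The 9 members and the 37 other ATF4 and CHOP target genes reach the highest values, with medians of 1.003 and 1.30, and the hypoxia-inducible genes lie mostly below 0, with a median of -0.47.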

How the data were processed

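Counts of reads per gene and FPKM were deposited by the authors for 58735 genes in 6 libraries, 3 per group, grouped and numbered per the labels. The submitters' processing notes name HISAT2 2.0.5 and the build hg19. All 58735 gene identifiers and coordinates equal GENCODE 29 on GRCh38, so coordinates are given as GRCh38. How reads were counted, and with which strand setting, is not given in the sources used here.

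For the test of counts, edgeR 4.0.16 (quasi-likelihood, R 4.3.3) was used (TMM, filterByExpr with minimum count 10 and total 15, robust), adjusted by Benjamini-Hochberg over 14520 genes at 0.05. The biological coefficient of variation was 26.6%, and genes not tested held 0.129% of counts. The fit was tested on counts simulated with the same spread for all genes and without the GC trend of these libraries, so the rates may differ here. It called 26.6% of 2-fold and 99% of 4-fold changes, and 4.72% of its calls were false. A gene not called may therefore still differ 2-fold. Log2 CPM used a prior count of 2. GC content is that of GENCODE 29 transcripts, and its trend was removed as a loess offset (span 0.3). Promoters are RefSeq, GRCh38.p14, with 7 of 9 genes matched. No exact permutation test was run, since 3 against 3 allows no p under 0.1. Alternatives were DESeq2 1.42.0 (Wald test, size factors), 2 other count filters, a replicate block, libraries left out, totals without DNAJC12, the GC offset, and limma 3.58.1 on log2(FPKM + 1) and log2(FPKM + 0.1), for genes of at least 0.5 FPKM in 3 libraries or without that filter. The members and lists were chosen with earlier results of these data known. Named were the 9 members, DNAJC12, up to 4 called genes of each list with the smallest adjusted p (the 2 most abundant where none was called) and the 5 genes most correlated with TRIB3. Some genes that met this rule are not reported here. ATF4, DDIT3, DELE1, SESN1, PPP1R15B, NDRG1, ALDH18A1, ERO1A and the marker genes were named after their values were seen.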

Additional observations from a re-analysis of the deposited data

How the results depend on the processing

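Under 17 alternatives for each of the 9 genes, no log2 fold change turned its sign, and the calls stayed on the same side of the threshold in 131 cases, came past it in 18 and no longer passed in 4. CHAC1 no longer passed without vector replicate 1 or 3 and, with SESN2, in limma without a filter. Counts of calls are given in the order all genes higher, all genes lower, listed pathway genes higher, listed pathway genes lower and members higher. They were 85, 96, 26, 2 and 4 with all libraries in edgeR. With DESeq2's Wald test they were 289, 276, 34, 6 and 6. Without a filter on low counts they were 366, 322, 36, 7 and 5. With the GC correction they were 1505, 1433, 61, 19 and 8. Without both libraries numbered 2 they were 1514, 1240, 61, 18 and 7. With limma on log2 FPKM without a filter they were 8, 4, 1, 0 and 2. Leaving out 1 library gave 15 to 1806, 6 to 1560, 6 to 64, 0 to 22 and 3 to 8. The cause of these shifts was not tested. With the replicate number as a block the counts were 1011, 926, 52, 14 and 7, the last against 6.96% of all genes. Same-numbered libraries deviated together for numbers 1 and 2 (r = 0.45 and 0.58) but not for 3 (r = 0.03). Not every library correlated best with its own number. The labels do not say whether the numbers pair the libraries, and this was not tested. The median within-group r with TRIB3, 0.59 with all libraries, was 0.33 with the GC correction and ran from 0.37 (without overexpression replicate 1) to 0.80 (without vector replicate 2) when 1 library was left out. TRIB2 and PPP1R15A, with log2 fold changes of 0.78 and 0.63, passed in 5 and 4 of 17 alternatives.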
